A study of Mus musculus with 18 samples.

Results

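The distance that remained between drug-treated Gαq hearts and healthy untreated hearts was measured across all genes of the left ventricle (LV). The comparison set the 4 libraries of Gαq mice given ertugliflozin (Gαq ERTU) against the 4 libraries of wild type mice on control diet (WT CD), 8 of the 18 libraries in the series, chosen by genotype and diet alone. All mice were FVB/N males, and the wild type mice were littermates. Gαq mice carry a transgene that overexpresses Gαq, encoded by Gnaq, in the heart only. From 4 weeks of age Gαq ERTU mice ate chow with 0.5 mg of the SGLT2 inhibitor ertugliflozin per g for 16 weeks, while WT CD mice ate the same chow without the drug, and hearts were taken at 20 weeks. Genotype and diet both differ between these groups and cannot be told apart within this comparison alone. The 5 libraries of untreated Gαq mice (Gαq CD) and the 5 of treated wild type mice (WT ERTU) are given beside it where they show what either factor did.

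Gαq is the G protein subunit that couples receptors for angiotensin II, endothelin and noradrenaline to phospholipase C, and its overexpression in cardiac myocytes produces hypertrophy that goes on to dilated cardiomyopathy. A failing ventricle typically returns to a fetal programme, with more natriuretic peptide and beta-myosin heavy chain and less of the calcium pump SERCA2a, and it burns less fatty acid. SGLT2 inhibitors block glucose reabsorption in the kidney. The heart itself holds little of the transporter.

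Depth was alike, with 15383566 to 18523083 counted read pairs per WT CD library and 16481268 to 20647195 per Gαq ERTU library. Levels are given as CPM, the count of a gene scaled to the library total by edgeR's cpm with trimmed-mean factors, in the order of the library numbers (1, 2, 4 and 5 for WT CD, and 16, 17, 18 and 20 for Gαq ERTU). Gnaq (ENSMUSG00000024639, chromosome 19, 16132831 to 16387463), the overexpressed gene, stood at 83.7, 134, 209 and 45.6 CPM in WT CD and at 2392, 5207, 2236 and 3031 CPM in Gαq ERTU. It was 29.8-fold higher in Gαq ERTU (log2 difference 4.90, exact permutation p = 0.0286, the smallest that 70 splits allow). Its level was 6304, 9701, 8045, 11672 and 1641 CPM in Gαq CD, and the log2 difference of Gαq ERTU minus Gαq CD was -1.22 ± 0.52 (SE, adjusted p = 0.653, not called). Its part in the values below was not tested. Transgene and endogenous reads were not separated. Summed cardiomyocyte markers ran over 76638 to 105830 CPM in WT CD and 71326 to 96479.8 CPM in Gαq ERTU, with 0 of 10 called. Myl7, the atrial myosin light chain, was uneven within both groups, at 23.01, 0.456, 0.347 and 78.2 CPM in WT CD and 32.05, 33.7, 5.76 and 92.5 CPM in Gαq ERTU. In bulk tissue, fewer cells of a type and less RNA per cell cannot be told apart.

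Treated Gαq hearts differed from untreated wild type hearts in 852 of 16270 genes tested (5.24%), of which 428 (2.63%) were higher and 424 (2.61%) lower in Gαq ERTU at an adjusted p under 0.05 (edgeR's quasi-likelihood test). The rises were the larger changes. The median log2 fold change was 1.03 for genes called higher and -0.62 for genes called lower, and a change of at least 2-fold was found in 222 rises (1.36% of genes tested) and 111 falls (0.682%). The median over all genes was -0.0047, so the scaling was centred. In 783 called genes (4.81%) the 4 Gαq ERTU libraries did not overlap the 4 WT CD libraries. Without that call, 1931 genes (11.9%) had groups that did not overlap. The count of 852 depended on the libraries used, at 544 without WT CD 1, 553 without WT CD 2, 553 without WT CD 4, 545 without Gαq ERTU 18 and 534 without Gαq ERTU 20. Long intergenic and antisense RNAs were called in 65 of 775 (8.39%), and protein coding genes in 738 of 13606 (5.42%).

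**Figure D1:**
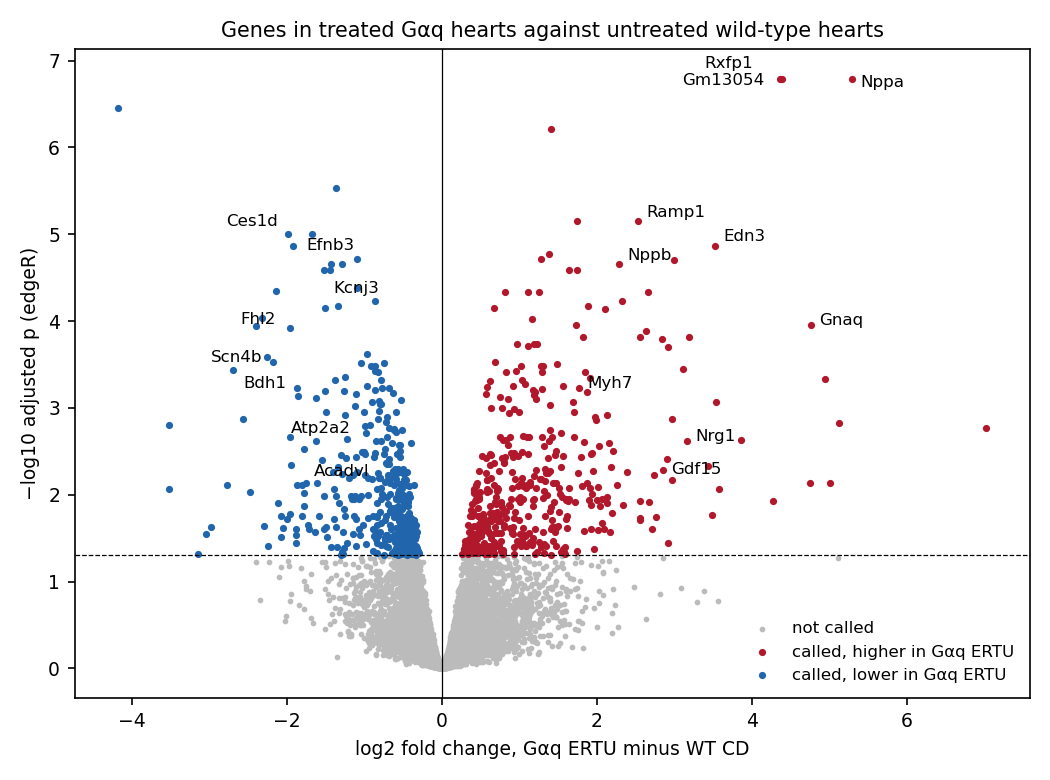
Each point is 1 of 16270 genes, with the log2 fold change of Gαq ERTU minus WT CD on the x axis and −log10 of the adjusted p on the y axis. The dashed line is an adjusted p of 0.05, above which 428 genes lie to the right and 424 to the left, with Nppa, Gm13054 and Rxfp1 highest on the right.

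The untreated Gαq hearts give the scale. Gαq CD against WT CD called 1318 genes (8.1%), 651 higher (4%) and 667 lower (4.1%), with a median size of 0.73 (log2) among called genes against 0.79 for Gαq ERTU. These comparisons share the WT CD libraries, and Gαq CD has 5 libraries to the 4 of Gαq ERTU. With 1 Gαq CD library left out in turn, so that both had 4, Gαq CD gave 934 to 1414 genes. Under limma voom with sample quality weights the counts were 1753 for Gαq ERTU and 1734 for Gαq CD. The direct test of the difference between treated and untreated Gαq hearts called 1 gene (0.00615%), while 1240 (7.62%) had an unadjusted p under 0.05. The Wald test of DESeq2 called 4. Wild type means do not enter this difference, but the wild type libraries shared in the filter, the scaling and the estimate of spread. With only the Gαq groups fitted, 0 genes were called. In wild type hearts the drug gave 0 genes (0%, with 365 or 2.24% at an unadjusted p under 0.05), and with diet the same, Gαq ERTU against WT ERTU called 1330 genes (8.17%).

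Distances between whole libraries were also measured. Each is the root mean square (RMS) difference of log2 CPM over the 16270 genes. Between Gαq ERTU and WT CD the 16 pairs had a median of 0.624 (0.519 to 0.713). The 20 pairs of Gαq CD and WT CD had a median of 0.623 (0.566 to 0.786). Libraries within WT CD were apart by a median of 0.513 and those within Gαq ERTU by 0.465, and WT ERTU was 0.484 from WT CD. Averaged over the 4 WT CD libraries, Gαq ERTU 16 was the farthest at 0.646 and Gαq ERTU 18 the nearest at 0.584. Pairs within a group were thus not far below pairs between groups.

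**Figure D2:**
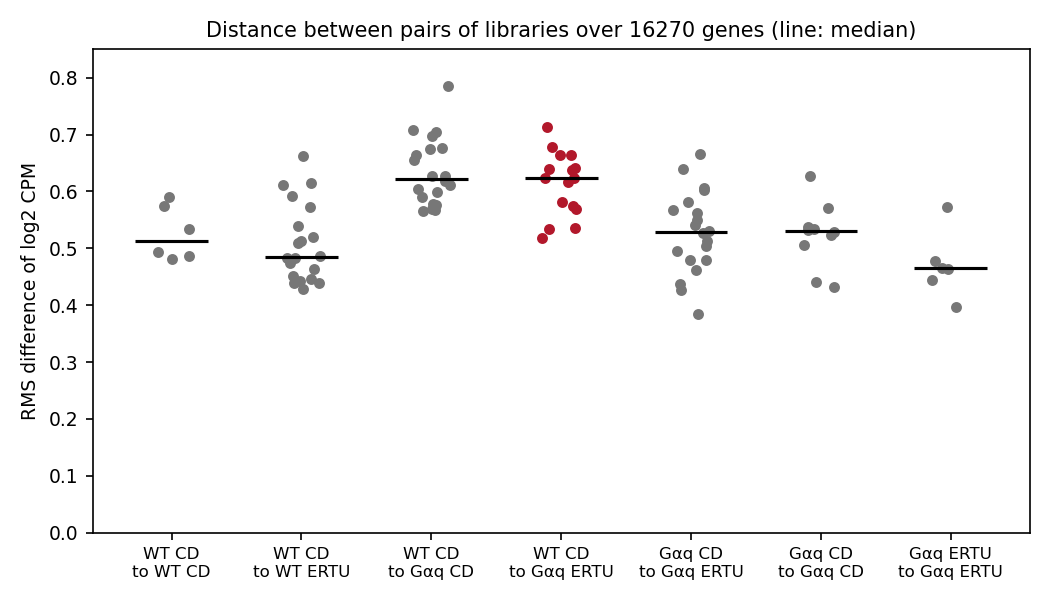
Each point is a pair of libraries, placed by the RMS difference of log2 CPM (y axis) and by the groups of the pair (x axis), with a line at the median. The Gαq ERTU to WT CD pairs (red) lie at 0.519 to 0.713 and cover much the same range as the Gαq CD to WT CD pairs.

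The 1 gene that separated treated from untreated Gαq hearts was Themis2 (ENSMUSG00000037731, chromosome 4, 132781843 to 132796387), which encodes a signalling adaptor of immune cells. Its level was 5.19, 5.30, 5.85 and 6.28 CPM in WT CD, 6.33, 7.79, 6.95, 7.27 and 6.42 CPM in Gαq CD and 4.45, 3.94, 4.24 and 3.72 CPM in Gαq ERTU. The 4 treated Gαq hearts were thus below every WT CD and every Gαq CD library. Relative to Gαq CD it fell by 0.77 (log2, adjusted p = 0.0459), and relative to WT CD the log2 fold change was -0.47 ± 0.13 (adjusted p = 0.0318). With any 1 library of either Gαq group removed, the first call was lost. The second was lost without WT CD 4, WT CD 5, Gαq ERTU 17, Gαq ERTU 18 or Gαq ERTU 20 (adjusted p from 0.0659 to 0.106), and also with no filter on counts or with only the groups compared (adjusted p = 0.165 and 0.116). Lymphocyte markers summed to 3.39 to 5.96 CPM in WT CD, 7.01 to 10.7 CPM in Gαq CD and 4.49 to 8.04 CPM in Gαq ERTU. From Gαq CD to Gαq ERTU their median log2 difference was -0.44, with 5 of 6 below zero and 0 called. Summed macrophage markers were 379 to 607 CPM in WT CD, 450.1 to 762 CPM in Gαq CD and 409 to 636 CPM in Gαq ERTU, with a median difference of -0.12 between the Gαq groups and 0 of 10 called. The part of either cell type in the Themis2 values was not tested.

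Some genes of the fetal and hypertrophic programme, both natriuretic peptides among them, were higher in treated Gαq hearts. Of 25 tested members of the hypertrophy list 7 were higher (28%, against 2.63% of all genes) and 0 lower, with a median log2 fold change of 0.50. The other 18 were not called, and 10 of the 25 were below zero. Nppa (ENSMUSG00000041616, chromosome 4, 148000722 to 148002079), which encodes atrial natriuretic peptide, was 537, 365, 481 and 259 CPM in WT CD and 21091, 14906, 14218 and 14133 CPM in Gαq ERTU. The groups were far apart, and the lowest treated heart was above the highest wild type heart by more than an order of magnitude. Its log2 fold change was 5.29 ± 0.40 (adjusted p = 1.62e-07), a 39.2-fold rise and the largest among named genes, beside 5.07 in Gαq CD. Nppb (ENSMUSG00000029019, chromosome 4, 147985788 to 147987205), which encodes B-type natriuretic peptide and lies 13516 bases upstream of Nppa, was 119, 224, 275 and 177 CPM in WT CD and 908, 1071, 706 and 1193 CPM in Gαq ERTU, again without overlap. It rose by 2.29 ± 0.25 (adjusted p = 2.2e-05). Nppa is also an atrial gene. The other tested atrial markers summed to 48.4 to 394 CPM in WT CD and 152 to 682 CPM in Gαq ERTU, and 0 of the 8 were called. In WT CD, Nppa was 537, 365, 481 and 259 CPM where Myl7 was 23.01, 0.456, 0.347 and 78.2 CPM. In Gαq ERTU, Nppa was 21091, 14906, 14218 and 14133 CPM where Myl7 was 32.05, 33.7, 5.76 and 92.5 CPM. The part of atrial tissue in the Nppa values was not tested. Without the library of highest Myl7 in each group, Nppa differed by 5.18, and 812 genes were called in all.

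Promoters of this neighbouring pair are shown because both genes moved together and by the most in the list. Each is 300 bases of RefSeq (GRCm38.p6), from 250 before to 50 after the start site, for Nppa at chr4:148000472-148000771, plus strand, and for Nppb at chr4:147985650-147985949, plus strand. Capitals mark TGATAA, a binding motif of the cardiac GATA factors, and TATAAA, an element that helps to place the start site, both searched on both strands.
Nppa: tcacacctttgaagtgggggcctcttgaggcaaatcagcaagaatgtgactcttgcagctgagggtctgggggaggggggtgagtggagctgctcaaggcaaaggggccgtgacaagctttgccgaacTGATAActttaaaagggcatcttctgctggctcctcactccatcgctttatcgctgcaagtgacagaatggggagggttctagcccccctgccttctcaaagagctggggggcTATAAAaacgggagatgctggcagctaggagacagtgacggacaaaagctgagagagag
Nppb: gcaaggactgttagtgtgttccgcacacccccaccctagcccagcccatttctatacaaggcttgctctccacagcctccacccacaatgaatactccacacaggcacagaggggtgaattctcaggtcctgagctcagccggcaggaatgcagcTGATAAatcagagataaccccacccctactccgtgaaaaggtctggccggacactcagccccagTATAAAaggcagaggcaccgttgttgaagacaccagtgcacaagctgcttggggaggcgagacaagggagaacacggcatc
Both promoters held each motif once, on the forward strand. TGATAA began at position -122 in Nppa and -95 in Nppb, counted from the annotated start site. TATAAA began at -9 in Nppa and -31 in Nppb, and whether either stretch acts in these hearts was not tested. Over all promoters of this length, 9.05% held TGATAA and 13.6% held TATAAA, and of the 7 members called in the list 2 held TGATAA.

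Sarcomere genes differed in part. Myh7, which encodes the slow beta-myosin heavy chain of the fetal ventricle, was 1982, 3720.0, 1827 and 2797 CPM in WT CD and 9509, 12257, 8763 and 4796 CPM in Gαq ERTU. The lowest treated heart, Gαq ERTU 20, was above the highest WT CD heart, and the log2 fold change was 1.77 ± 0.28 (adjusted p = 0.00059). Antisense RNAs overlap Myh7, and without strand in a library their reads cannot be told from its own. Myh6, the fast alpha-myosin chain of the adult ventricle, overlapped between groups (-0.40 ± 0.19, adjusted p = 0.276), as did skeletal actin Acta1 (0.60 ± 0.48, adjusted p = 0.537). Rcan1, a target and inhibitor of calcineurin, was 90.8, 99.4, 93.5 and 99.1 CPM in WT CD and 205, 242, 142 and 219 CPM in Gαq ERTU. Its 4 treated values were all higher, and it rose by 1.08 ± 0.17 (adjusted p = 0.000532), beside 1.49 in Gαq CD. The stretch-responsive Ankrd1 (0.98), the ubiquitin hydrolase Uchl1 (1.10) and fast myosin-binding protein Mybpc2 (0.81) were the other members called. The number called higher ran from 6 to 8 with 1 library removed at a time.

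**Figure D3:**
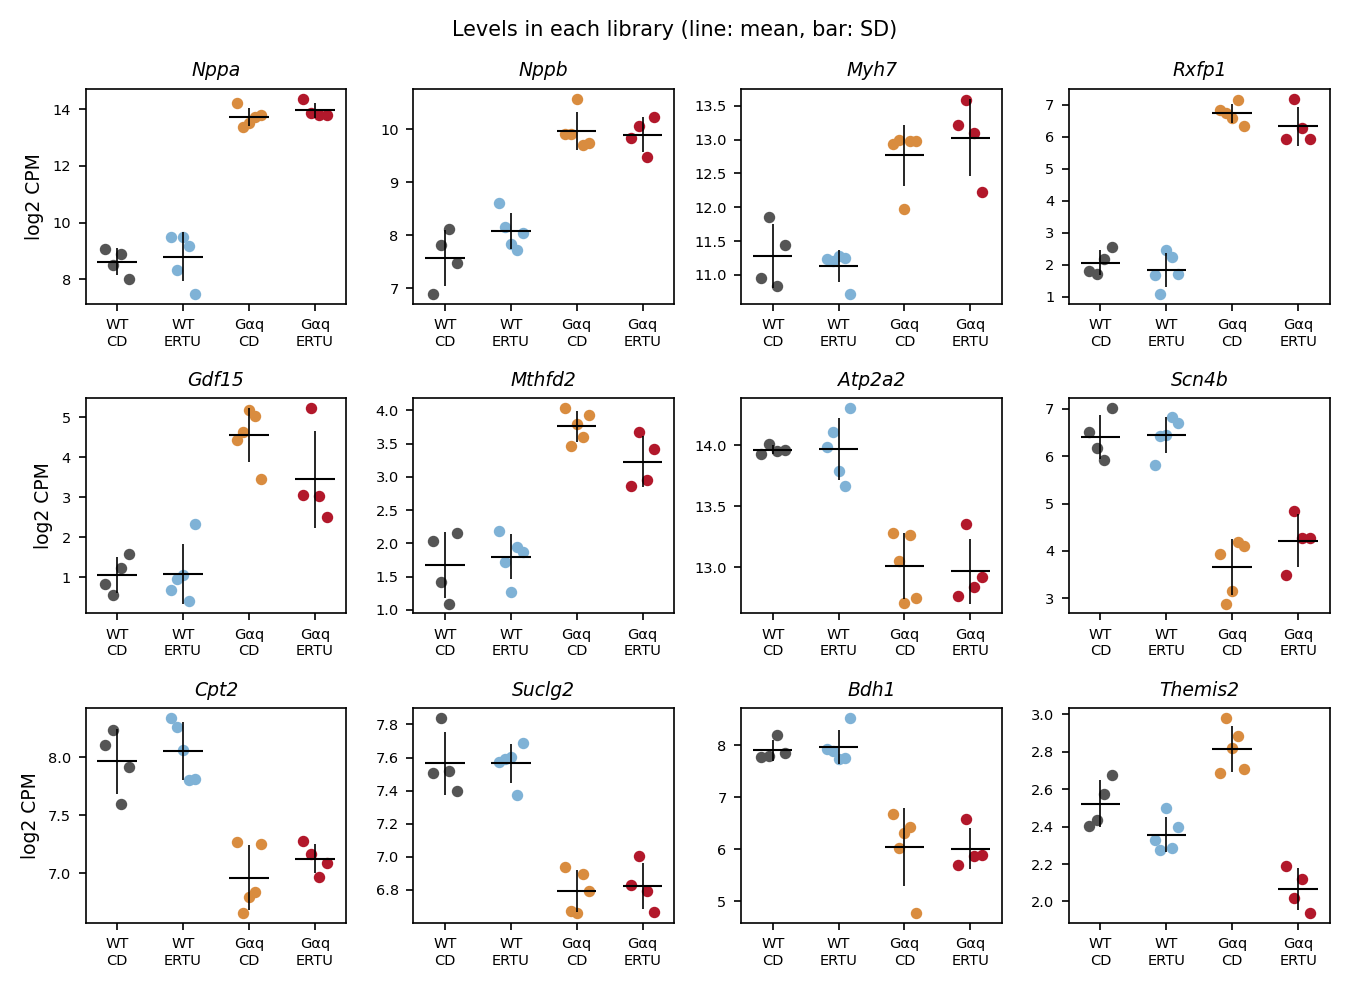
Each panel plots 1 gene as log2 CPM (y axis) in each library of the 4 groups (x axis), with the mean and SD. The treated Gαq hearts sit beside the untreated Gαq hearts for Nppa, at 5.29 against 5.07, and Bdh1, at -1.86 against -1.75 (log2 relative to WT CD). For Themis2 they lie below the WT CD and Gαq CD hearts. For Gdf15 they spread widely, with Gαq ERTU 20 at 5.56 CPM close to WT ERTU 15 at 4.96 CPM.

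The largest rises were of varied function. They were named by size, without a list, among genes already called and without overlap between the groups. Neither the call nor the lack of overlap is thus a further result for them. Rxfp1 (ENSMUSG00000034009, chromosome 3, 79641611 to 79737880), the receptor for relaxin, was 3.34, 3.13, 4.40 and 5.78 CPM in WT CD and 59.95, 145, 76.4 and 60.4 CPM in Gαq ERTU. It went from a low level in each wild type heart to at least 59.95 CPM in each treated heart, with a log2 fold change of 4.36 ± 0.32 (adjusted p = 1.62e-07) beside 4.69 in Gαq CD. Edn3, an endothelin peptide, was 0.577, 0.57, 0.637 and 0.942 CPM in WT CD and 5.48, 10.5, 7.80 and 7.67 CPM in Gαq ERTU. It rose by 3.53 ± 0.37 (adjusted p = 1.35e-05). Nrg1, the ligand of ErbB receptors on myocytes, was 1.33, 0.456, 2.43 and 3.26 CPM in WT CD and 6.76, 12.97, 30.4 and 16.7 CPM in Gαq ERTU, the widest spread of these genes, and rose by 3.17 ± 0.58 (adjusted p = 0.00243). Ramp1, the partner that makes a receptor for calcitonin gene-related peptide, rose by 2.54 ± 0.25 (adjusted p = 7.03e-06), from 3.69, 1.82, 2.72 and 2.82 CPM to 19.01, 12.1, 15.99 and 17.3 CPM. Fetub, a secreted protease inhibitor, rose by 2.66 ± 0.32 and Slc24a2, a sodium, calcium and potassium exchanger, by 2.63 ± 0.35 (adjusted p = 4.61e-05 and 0.000131). None of these 6 genes was called between treated and untreated Gαq hearts.

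The SERCA2a gene was lower, while 25 of 29 calcium cycling genes were not called. Atp2a2 (ENSMUSG00000029467, chromosome 5, 122453513 to 122502225), which encodes SERCA2a, was 15547, 16479.5, 15816 and 15962 CPM in WT CD, a narrow range, and 6937, 10484, 7337 and 7729.9 CPM in Gαq ERTU. The highest treated value, in Gαq ERTU 17, was still below each wild type value, and it fell by 0.97 ± 0.17 on the log2 scale (adjusted p = 0.00196), beside -0.93 in Gαq CD. Pln, which encodes phospholamban, the inhibitor of SERCA2a, overlapped between groups (-0.18 ± 0.14, adjusted p = 0.511). Of the 29 calcium cycling members 1 was higher and 3 were lower (13.8% called, against 5.24% of all genes), 12 were above zero and 17 below, and the median was -0.06. Those called lower numbered from 1 to 4 with 1 library removed at a time (1 without WT CD 2, 1 without WT CD 4, 1 without Gαq ERTU 16 and 1 without Gαq ERTU 20), and 0 were called higher in each of those fits. The exchanger gene Slc8a1 (-0.73 ± 0.20) was not called without WT CD 1, WT CD 2, WT CD 4, Gαq ERTU 16, Gαq ERTU 18 or Gαq ERTU 20 (adjusted p from 0.0552 to 0.108), the receptor gene Itpr2 (-0.57 ± 0.15) without WT CD 1, WT CD 2, WT CD 4, Gαq ERTU 16, Gαq ERTU 17 or Gαq ERTU 20 (adjusted p from 0.0561 to 0.0922), and the calsequestrin gene Casq1 (1.05 ± 0.29) whichever of the 8 libraries was removed (adjusted p from 0.0502 to 0.11).

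Among 30 channel genes 8 were lower and 2 higher (33.3% called, against 5.24% of all genes), with a median of -0.26 and 8 lower and 1 higher in Gαq CD. Scn4b (ENSMUSG00000046480, chromosome 9, 45138395 to 45154152), a sodium channel beta subunit, was 91.4, 72.2, 60.7 and 129 CPM in WT CD and 11.1, 28.7, 19.2 and 19.2 CPM in Gαq ERTU. The highest treated value was less than the lowest wild type value, and the log2 fold change was -2.17 ± 0.31 (adjusted p = 0.000293) beside -2.74 in Gαq CD. Kcnj3, an inward rectifier gated by G proteins, was 61.1, 58.3, 60.03 and 47.8 CPM in WT CD and 19.6, 21.8, 19.6 and 28.5 CPM in Gαq ERTU, and fell by 1.34 ± 0.17 on the log2 scale (adjusted p = 6.62e-05). The sodium channel Scn4a (-1.63 ± 0.30, adjusted p = 0.00241), the transient outward channel Kcnd2 (-1.02), Kcnv2 (-1.07), the pacemaker channel Hcn4 (-0.85), Kcnk3 (-0.62) and Kcnj2 (-0.48) were also lower. Gjc1, which encodes connexin 45, a gap junction protein of the early heart, went the other way, from 22.1, 26.3, 24.4 and 24.8 CPM to 55.3, 48.5, 45.5 and 41.2 CPM (0.96 ± 0.14, adjusted p = 0.000373), as did Kcna4 (1.34). The number called lower ran from 4 to 7 with 1 library removed at a time (5 without WT CD 2, 4 without WT CD 4, 5 without Gαq ERTU 18 and 5 without Gαq ERTU 20). Clcn1, the chloride channel of skeletal muscle, had the largest fall of the genes named by size, from 5.25, 8.72, 11.98 and 5.71 CPM to 0.853, 1.22, 1.13 and 1.61 CPM (-2.70 ± 0.40, adjusted p = 0.000362). Summed skeletal muscle markers, Acta1 and Ckm among them, were 2576 to 4142 CPM in WT CD and 2371 to 3332 CPM in Gαq ERTU. Of 6 tested 1 was called lower and 4 were above zero, with a median of 0.65. In the same list Myh4 was 0 CPM in each WT CD library and at most 0.276 CPM in Gαq ERTU. Pvalb was at most 0.502 CPM in WT CD and 2.86 CPM in Gαq ERTU. The part of skeletal muscle in the Clcn1 and Scn4a values was not tested.

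Few genes of the pathway that the transgene drives were called beyond Gnaq itself. Of 36 tested Gq signalling members 1 was higher and 1 lower (5.56%, close to the 5.24% of all genes), with a median of -0.07. Adra1a, the alpha-1A adrenergic receptor that signals through Gαq, was 49.6, 53.6, 30.04 and 54.6 CPM in WT CD and 13.8, 22.2, 20.2 and 23.1 CPM in Gαq ERTU. Even the lowest wild type heart, WT CD 4, was above each treated heart, and the log2 fold change was -1.24 ± 0.24 (adjusted p = 0.0038), beside -1.60 in Gαq CD. The transcription factor gene Nfatc4 (0.47 ± 0.12) was not called without WT CD 1, WT CD 2, WT CD 4, Gαq ERTU 17, Gαq ERTU 18 or Gαq ERTU 20 (adjusted p from 0.0604 to 0.11).

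Fatty acid oxidation genes remained below wild type, by less than in untreated Gαq hearts as measured, although the difference was not called for any of them. Of 37 members 12 were lower and 0 higher (32.4%, against 2.61% of all genes called lower), with a median of -0.43. In Gαq CD 22 were lower, with a median of -0.69. Between treated and untreated Gαq hearts the median was 0.28 and 36 of 37 members were above zero, but 0 were called and 6 had an unadjusted p under 0.05. Fat markers were above zero in 8 of 8 in the same comparison, with a median of 1.13 (1.51 relative to WT CD), 0 called and 3 at an unadjusted p under 0.05. Their sums were 746 to 1542 CPM in WT CD, 587 to 1264 CPM in Gαq CD and 677 to 1654 CPM in Gαq ERTU, and their part in the oxidation genes was not tested. Cpt2 (ENSMUSG00000028607, chromosome 4, 107903981 to 107923610), the inner membrane carnitine palmitoyltransferase, was 275, 303, 194 and 242 CPM in WT CD and 155, 143, 125 and 136 CPM in Gαq ERTU. Its groups did not overlap (-0.86 ± 0.16, adjusted p = 0.00328), though WT CD 4 was the lowest wild type heart. Acadvl and Acadm, dehydrogenases for very long and medium chains, fell by 0.68 ± 0.13 and 0.51 ± 0.11 (log2, adjusted p = 0.00388 and 0.0107), but Acadm was not called when only the groups compared were fitted (adjusted p = 0.0616). Acad11 (-0.68 ± 0.12, adjusted p = 0.0017) and Etfa, which passes electrons from these enzymes to the respiratory chain (-0.53 ± 0.11, adjusted p = 0.00541), were lower in each treated heart than in each wild type heart. Decr1, Eci1, Acaa2, Acads, Etfdh, Echs1 and Acaa1a were the other members called, at -0.69 to -0.34. Cpt1b, the outer membrane enzyme that sets the rate of entry into mitochondria, was not called (-0.29 ± 0.27, adjusted p = 0.612). The number called lower ran from 7 to 13 with 1 library removed at a time (7 without WT CD 1 and 7 without Gαq ERTU 18).

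The mean of the list in each library shows the spread behind these counts. Relative to the WT CD mean, the fatty acid oxidation list stood at 0.18, 0.26, -0.49 and 0.04 (log2) in the WT CD libraries and at -0.21, -0.47, -0.40 and -0.34 in Gαq ERTU. WT CD 4 lay below each treated heart, and the other wild type hearts lay above them. The untreated Gαq hearts ranged most widely, at -0.40, -1.17, -1.0004, -0.99 and -0.29, with 2 of the 5 as high as treated hearts and 3 far below them.

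**Figure D4:**
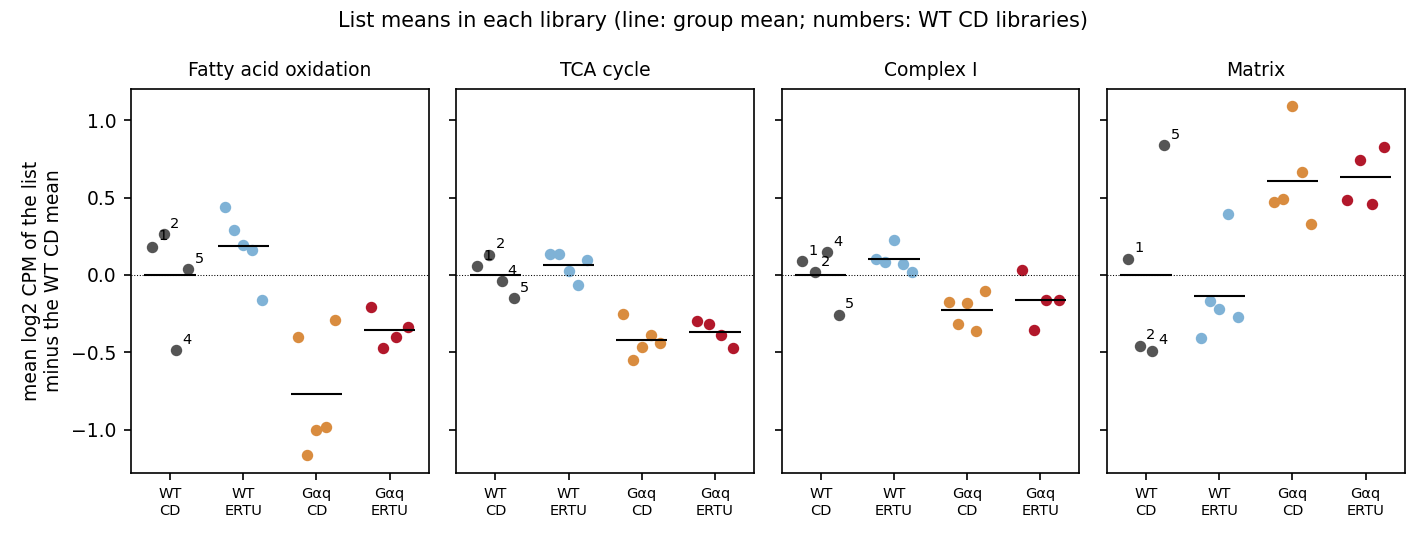
Each panel plots the mean log2 CPM of a gene list in each library relative to the WT CD mean (y axis) for the 4 groups (x axis), with the group mean as a line and the WT CD libraries numbered. WT CD 4 lies at -0.49 for fatty acid oxidation and WT CD 5 at 0.84 for matrix, inside the range of the Gαq hearts in both.

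The TCA cycle was the list with the largest share called. Of 23 members 8 were lower (34.8%, against 2.61% of all genes) and 0 higher, with a median of -0.43, close to the -0.48 of Gαq CD, in which 16 were lower. Relative to the WT CD mean the list stood at 0.06, 0.13, -0.04 and -0.15 (log2) in WT CD and -0.30, -0.32, -0.39 and -0.47 in Gαq ERTU, without overlap. Suclg2, the GTP-forming subunit of succinyl-CoA ligase, was 182, 229, 183 and 169 CPM in WT CD and 114, 128, 111 and 102 CPM in Gαq ERTU. It fell by 0.75 ± 0.11 on the log2 scale (adjusted p = 0.000301), beside -0.78 in Gαq CD. The partner subunit Sucla2 (-0.55 ± 0.10, adjusted p = 0.0027) and Dld, the dehydrogenase shared by the 2-oxoacid complexes (-0.59 ± 0.10, adjusted p = 0.00187), fell as well, and each differed from Gαq CD by at most 0.01. The number called lower ran from 4 to 9 with 1 library removed at a time (5 without WT CD 1, 4 without WT CD 2 and 5 without Gαq ERTU 20), and was 4 when only the 8 libraries compared were fitted.

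Respiratory chain genes were counted in 2 lists. For complexes II to V and cytochrome c, 7 of 44 members were lower and 1 higher (18.2%, against 5.24% of all genes). The median was -0.15, with 31 of 44 below zero, beside -0.20 in Gαq CD, in which 13 were lower and 1 higher. For complex I, 1 of 36 was lower (2.78%, against 2.61% of all genes), with 31 of 36 below zero. The median was -0.16, beside -0.26 in Gαq CD, in which 4 were lower. That 1 member, Ndufs7, was not called without WT CD 1, WT CD 2, WT CD 4, Gαq ERTU 17, Gαq ERTU 18 or Gαq ERTU 20 (adjusted p from 0.0693 to 0.104). Between treated and untreated Gαq hearts 32 of 36 complex I members were above zero, as were 37 of 44 of the other list, with 0 called in either. Library means of complex I overlapped, with WT CD 5 at -0.26 and Gαq ERTU 16 at 0.03 (log2, relative to the WT CD mean). Sdha, the flavoprotein of succinate dehydrogenase, was 1753, 2078, 1747 and 1617 CPM in WT CD and 1299, 1417, 1209 and 1133 CPM in Gαq ERTU (-0.51 ± 0.11, adjusted p = 0.00847). Uqcrfs1, the iron-sulfur protein of complex III, was also lower in each treated heart (-0.54 ± 0.10, adjusted p = 0.00364). Atpif1, the inhibitor of ATP synthase, was the exception that rose, from 113, 116, 125 and 100.4 CPM to 276, 183, 243 and 222 CPM, without overlap (1.02 ± 0.15, adjusted p = 0.000328), beside 0.92 in Gαq CD. Ndufb8 (-0.08 ± 0.11) and Cox4i1 (-0.15 ± 0.12) overlapped between groups. The number called lower for complexes II to V ran from 2 to 10 with 1 library removed at a time (2 without WT CD 1, 3 without WT CD 2, 3 without WT CD 4, 3 without Gαq ERTU 17, 2 without Gαq ERTU 18 and 2 without Gαq ERTU 20).

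Ketone and branched-chain amino acid genes were lower in 9 of 28 members and higher in 0 (32.1%, against 2.61% of all genes called lower), with a median of -0.29 beside -0.37 in Gαq CD. Bdh1 (ENSMUSG00000046598, chromosome 16, 31422280 to 31458901), which oxidises the ketone body beta-hydroxybutyrate, was 219, 221, 294 and 232 CPM in WT CD and 51.5, 96.1, 58.3 and 59.3 CPM in Gαq ERTU. Each wild type heart was above each treated heart (-1.86 ± 0.29, adjusted p = 0.00059), and Gαq CD stood at -1.75. Oxct1, the next enzyme of ketone use, overlapped between groups (-0.36 ± 0.14, adjusted p = 0.161). On the amino acid side, the dehydrogenase Hibadh (-0.52 ± 0.08), the phosphatase Ppm1k that activates the branched-chain complex (-0.80 ± 0.13) and Mccc2 of leucine breakdown (-0.59 ± 0.10) fell without overlap (adjusted p = 0.000812, 0.0011 and 0.00111). The number called lower ran from 6 to 9 with 1 library removed at a time.

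Glucose genes moved both ways, with 6 of 39 lower and 2 higher (20.5%, against 5.24% of all genes). Slc2a4, the insulin-responsive glucose transporter, was 408, 388, 414 and 301 CPM in WT CD and 246, 285, 241 and 224 CPM in Gαq ERTU, lower without overlap but just outside the threshold (-0.60 ± 0.18, adjusted p = 0.0536), and inside it by DESeq2 (adjusted p = 0.0211). Pfkfb1, which makes an activator of glycolysis, was 29.3, 23.9, 15.8 and 22.5 CPM in WT CD and 7.13, 5.16, 7.34 and 5.56 CPM in Gαq ERTU (-1.86 ± 0.30, adjusted p = 0.000722). On the mitochondrial side of pyruvate use, Pdhb (-0.50 ± 0.10), Pdhx (-0.54), the phosphatase Pdp2 (-1.04), Pdk1 (-0.40) and the carrier Mpc2 (-0.53) were lower. Pfkp, the platelet type of phosphofructokinase, rose by 0.74 ± 0.15 and Gyg, the primer of glycogen, by 0.57 ± 0.09 (adjusted p = 0.0054 and 0.000697). Slc5a1, which encodes SGLT1, was at most 2.20 CPM in these 8 hearts (-0.16 ± 0.62, adjusted p = 0.926). Slc5a2, which encodes the drug target SGLT2, was 0.346, 0.285, 0.116 and 0.0628 CPM in WT CD and 0.0609, 0.111, 0.169 and 0.0919 CPM in Gαq ERTU, too low to test.

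Regulators of metabolism were lower in 5 of 33 members and higher in 0 (15.2%, against 2.61% of all genes called lower). Tfam, which maintains mitochondrial DNA, was 55.5, 55.2, 54.9 and 47.1 CPM in WT CD and 38.3, 44.4, 37.6 and 38.97 CPM in Gαq ERTU (-0.42 ± 0.09, adjusted p = 0.00803), beside -0.21 in Gαq CD (adjusted p = 0.149). Nmnat3 and Nmnat1, enzymes of NAD synthesis, fell by 0.68 ± 0.11 and 0.46 ± 0.10 (log2, adjusted p = 0.00059 and 0.00676). The creatine kinases Ckmt2 (-0.55 ± 0.13) and Ckm (-0.57) were lower, Ckmt2 not without WT CD 1 or Gαq ERTU 18 (adjusted p from 0.0525 to 0.0568). The master regulators Ppara (-0.38 ± 0.23), Ppargc1a (-0.27 ± 0.17) and Esrra (-0.19 ± 0.09) were not called (adjusted p = 0.41, 0.442 and 0.262), although Esrra was lower in each treated heart. The number of members called lower ran from 3 to 8 with 1 library removed at a time (3 without WT CD 1 and 8 without WT CD 5). For several genes that respond to fasting and fatty acids, 1 wild type heart stood apart from the others. Pdk4, which shuts off pyruvate oxidation, was 3976, 3504, 166 and 3500.4 CPM in WT CD and 2041, 1308, 1508 and 2471 CPM in Gαq ERTU, with WT CD 4 far below all others (-0.61 ± 0.81, adjusted p = 0.743). The same heart was lowest for Ucp3 (-0.91 ± 0.68), Ehhadh (-0.81 ± 0.26) and Pank1 (-0.40 ± 0.24), none of them called. Without it Ehhadh was called at -1.03 (adjusted p = 0.0101).

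**Figure D5:**
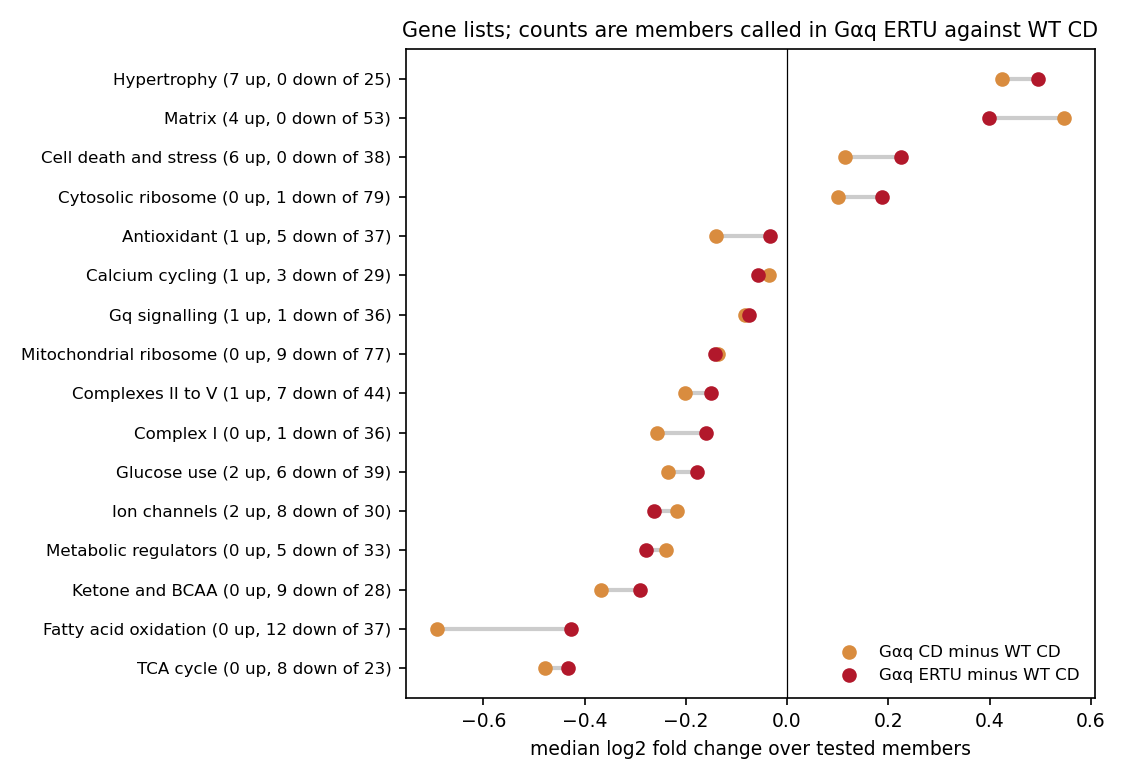
Each row is a gene list, with the median log2 fold change over its tested members (x axis) for Gαq CD (orange) and Gαq ERTU (red), both minus WT CD, and the members called in Gαq ERTU in brackets. The bar is longest for fatty acid oxidation, -0.69 against -0.43, and short for the TCA cycle, -0.48 against -0.43.

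Matrix genes were higher by count in 4 of 53 members and lower in 0 (7.55%, against 2.63% of all genes called higher), and 48 of 53 were above zero (median 0.40). This count moved with the libraries used. The list stood at 0.11, -0.46, -0.49 and 0.84 (log2, relative to the WT CD mean) in WT CD and 0.49, 0.74, 0.46 and 0.83 in Gαq ERTU, with WT CD 5 above all the treated hearts. The number called ran from 1 to 13 with 1 library removed at a time (1 without WT CD 2, 1 without WT CD 4, 13 without WT CD 5, 1 without Gαq ERTU 16, 1 without Gαq ERTU 17 and 2 without Gαq ERTU 20), and was 17 without the library of highest Myl7 in each group. Tgfb3, a growth factor that promotes fibrosis, was 22.8, 22.2, 22.5 and 30.01 CPM in WT CD and 41.7, 52.5, 38.4 and 48.9 CPM in Gαq ERTU (0.90 ± 0.17, adjusted p = 0.0033), and was called in each of those fits. The matricellular gene Thbs4 (1.42 ± 0.36) was not called without WT CD 2, WT CD 4, Gαq ERTU 16 or Gαq ERTU 17 (adjusted p from 0.0572 to 0.0823), Cilp (1.62 ± 0.41) without WT CD 1, WT CD 2, WT CD 4, Gαq ERTU 16, Gαq ERTU 17 or Gαq ERTU 20 (adjusted p from 0.0542 to 0.0895) though it stood at 2.24 without WT CD 5, and Mmp2 (0.55 ± 0.16) without WT CD 1, WT CD 2, WT CD 4, Gαq ERTU 16, Gαq ERTU 17, Gαq ERTU 18 or Gαq ERTU 20 (adjusted p from 0.0538 to 0.169). The fibrillar collagens Col1a1 (0.46 ± 0.29, adjusted p = 0.42) and Col3a1 (0.14 ± 0.30, adjusted p = 0.855) and the fibrosis marker Postn (0.36 ± 0.39, adjusted p = 0.671) overlapped between groups. Without WT CD 5, Col1a1 was called at 0.92 (adjusted p = 0.0279), and Ccn2, another fibrosis gene, at 1.46 (adjusted p = 0.0494). Of 10 fibroblast markers, 3 of which are collagens of this list, 1 was called higher and all 10 were above zero, their sum running over 3398 to 6633 CPM in WT CD and 5775 to 6782 CPM in Gαq ERTU. Mesothelial markers summed to 5.48 to 10.1 CPM and 11.7 to 30.8 CPM, with 0 of 7 called. The part of either cell type in the matrix values was not tested.

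Genes of the integrated stress response were among those higher. In the cell death and stress list 6 of 38 members were higher and 0 lower (15.8%, against 2.63% of all genes called higher), with 8 higher and 2 lower in Gαq CD. The other 32 were not called in Gαq ERTU, 11 of the 38 were below zero, and the median log2 fold change was 0.23. Gdf15 (ENSMUSG00000038508, chromosome 8, 70629393 to 70632456), a hormone that stressed mitochondria induce, was 1.67, 1.37, 2.26 and 2.89 CPM in WT CD, 21.6, 24.7, 35.96, 32.8 and 10.97 CPM in Gαq CD and 8.16, 37.4, 8.08 and 5.56 CPM in Gαq ERTU. The treated hearts were all above wild type, Gαq ERTU 17 by far the most (2.85 ± 0.57, adjusted p = 0.00514). Without Gαq ERTU 17 the log2 fold change was 1.83 (adjusted p = 0.0172). Mthfd2, a mitochondrial folate enzyme, was 3.98, 2.56, 2.03 and 4.33 CPM in WT CD and 7.19, 12.6, 7.63 and 10.6 CPM in Gαq ERTU (1.56 ± 0.24, adjusted p = 0.000557), beside 2.08 in Gαq CD. Asns, which makes asparagine, was 2.19, 2.16, 2.89 and 2.76 CPM in WT CD and 3.78, 5.10, 4.29 and 5.56 CPM in Gαq ERTU (0.91 ± 0.19, adjusted p = 0.00847), beside 1.31 in Gαq CD, and was not called without the library of highest Myl7 in each group (adjusted p = 0.0528). The proline enzyme Pycr1 (1.14) and the transcription factor gene Atf5 (0.49) rose too, as did Bcl2, an inhibitor of apoptosis, from 12.5, 11.6, 16.7 and 16.6 CPM to 33.9, 56.8, 42.03 and 28.03 CPM (1.49 ± 0.21, adjusted p = 0.000315). The number called higher ran from 4 to 6 with 1 library removed at a time.

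Promoters of Asns and Pycr1 are shown because, of the 6 members called in this list, these 2 held TGATGNAA, the composite motif through which the stress factor ATF4 acts together with C/EBP proteins. They are 300 bases each of RefSeq (GRCm38.p6), at chr6:7693160-7693459, minus strand, for Asns and at chr11:120643699-120643998, minus strand, for Pycr1, read 5′ to 3′ in the direction of the gene with the motif in capitals.
Asns: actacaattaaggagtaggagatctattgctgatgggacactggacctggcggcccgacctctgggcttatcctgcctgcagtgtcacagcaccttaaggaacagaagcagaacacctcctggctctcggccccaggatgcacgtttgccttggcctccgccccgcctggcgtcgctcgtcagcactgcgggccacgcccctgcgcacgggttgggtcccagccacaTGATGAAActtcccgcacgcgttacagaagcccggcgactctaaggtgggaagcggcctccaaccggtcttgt
Pycr1: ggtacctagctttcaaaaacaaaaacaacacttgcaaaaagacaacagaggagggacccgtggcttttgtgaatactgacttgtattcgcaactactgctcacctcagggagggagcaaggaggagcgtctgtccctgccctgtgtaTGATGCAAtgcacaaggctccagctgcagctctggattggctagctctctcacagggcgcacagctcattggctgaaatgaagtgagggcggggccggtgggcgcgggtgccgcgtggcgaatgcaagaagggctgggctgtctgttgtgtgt
The motif began at position -23 in Asns and -103 in Pycr1 and was found in 3.97% of all promoters of this length on either strand. It was not found within this window in the promoters of Bcl2, Mthfd2, Gdf15 and Atf5. Whether the motif acts in these hearts was not tested.

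Antioxidant genes were lower in 5 of 37 members and higher in 1 (16.2%, against 5.24% of all genes). The median was -0.03, with 17 of 37 above zero. Nqo1, a quinone reductase, was 72.95, 121, 81.3 and 89.8 CPM in WT CD and 50.3, 42.7, 35.2 and 40.4 CPM in Gαq ERTU, with no overlap (-1.11 ± 0.18, adjusted p = 0.000959), beside -1.28 in Gαq CD. Sod2 and Prdx3, which remove superoxide and peroxide in mitochondria, fell by 0.49 ± 0.11 and 0.41 ± 0.09 (log2, adjusted p = 0.0114 and 0.0105), Sod2 not without Gαq ERTU 20 (adjusted p = 0.0511) or with only the groups compared (adjusted p = 0.0512). Nnt, which supplies mitochondrial NADPH, was at -0.84, and the extracellular peroxidase Gpx3 was the one that rose (1.07). The number called lower ran from 2 to 5 with 1 library removed at a time (2 without Gαq ERTU 20).

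Mitochondrial ribosomal proteins were lower in 9 of 77 members and higher in 0 (11.7%, against 2.61% of all genes called lower), with a median of -0.14 beside -0.14 in Gαq CD. Mrps2 (-0.58 ± 0.12, adjusted p = 0.00569) and Mrpl45 (-0.54 ± 0.11, adjusted p = 0.0075) were lower in each treated heart. The number called ran from 2 to 15 with 1 library removed at a time (3 without WT CD 1, 2 without WT CD 2, 4 without WT CD 4, 15 without WT CD 5, 4 without Gαq ERTU 18 and 2 without Gαq ERTU 20). Of 79 cytosolic ribosomal proteins 72 were above zero, with a median of 0.19. Relative to the WT CD mean, their library means ran from -0.29 to 0.46 (log2) in Gαq ERTU and from -0.097 to 0.103 in WT CD. Only 1 of the 79 was called (1.27%, against 5.24% of all genes), Rpl3l, the form made in muscle in place of Rpl3 (-0.62 ± 0.15, adjusted p = 0.0169). It was not called without WT CD 1, WT CD 2, Gαq ERTU 18 or Gαq ERTU 20 (adjusted p from 0.0574 to 0.0665).

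Other large falls were of varied function. Ces1d, a carboxylesterase that hydrolyses stored lipid, was 162, 157, 109 and 109 CPM in WT CD and 42.5, 21.5, 35.5 and 36.7 CPM in Gαq ERTU (-1.98 ± 0.20, adjusted p = 1.01e-05), beside -2.45 in Gαq CD. Fhl2, a LIM protein of the sarcomere, was 820.4, 691, 1256 and 460.2 CPM in WT CD and 228, 171, 203 and 231 CPM in Gαq ERTU, at most 231 CPM in any treated heart (-1.95 ± 0.26, adjusted p = 0.000121). Efnb3, an ephrin ligand, fell by 1.91 ± 0.20 and Lgi1, a secreted neuronal protein, by 1.95 ± 0.38 on the log2 scale (adjusted p = 1.35e-05 and 0.00456). Prr33 was at -2.26 ± 0.32 beside -1.55 in Gαq CD, and Tmem150c at -2.14 ± 0.26 beside -1.59 (adjusted p = 0.00026 and 4.56e-05 against WT CD), and neither was called between the Gαq groups. Cyp2b10, a drug-metabolising cytochrome, was 49.9, 12.3, 18.5 and 30.8 CPM in WT CD and 4.51, 5.93, 11.9 and 5.47 CPM in Gαq ERTU (-2.004 ± 0.49, adjusted p = 0.019), and was not called without WT CD 1, Gαq ERTU 16, Gαq ERTU 17 or Gαq ERTU 20 (adjusted p from 0.0505 to 0.0909). Cyp26b1, which breaks down retinoic acid, was 11.995, 27.4, 81.5 and 18.3 CPM in WT CD, highest by far in WT CD 4, and 7.31, 8.04, 8.25 and 4.78 CPM in Gαq ERTU (-2.30 ± 0.58, adjusted p = 0.0231). It was not called without WT CD 4, Gαq ERTU 16, Gαq ERTU 18 or Gαq ERTU 20 (adjusted p from 0.0567 to 0.139), and stood at -1.44 without WT CD 4.

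Noncoding RNAs made up part of the extremes. Gm13054 (ENSMUSG00000086806, chromosome 4, 148001091 to 148004014), an antisense RNA that overlaps Nppa, rose by 4.39 ± 0.32 (adjusted p = 1.62e-07), from 0.98, 0.798, 0.579 and 0.314 CPM in WT CD to 17.5, 13.9, 13.1 and 12.5 CPM in Gαq ERTU. It held 0.0829% to 0.0933% of the Nppa level in Gαq ERTU and 0.12% to 0.219% in WT CD, and whether its reads come from the opposite strand of Nppa was not tested. Gm31659 (2.999 ± 0.33) and Gm40649 (2.92 ± 0.40) also rose (adjusted p = 2e-05 and 0.0002), and Gm29040 fell by 2.39 ± 0.31 on the log2 scale (adjusted p = 0.000114). Gm19461 fell as well (-2.32 ± 0.30, adjusted p = 9.3e-05), while Plekha6, the coding gene it overlaps on the other strand, averaged 152 CPM in WT CD and 259 CPM in Gαq ERTU.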

How the data were processed

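Bulk RNA was sequenced from frozen LV of 18 mice as poly(A)-selected, 100-bp paired reads. The authors aligned reads to mm10 with STAR 2.6.0c and deposited raw counts per Ensembl gene, made with featureCounts (Subread 1.6.2) from uniquely aligned pairs over nuclear genes. The study's methods add that pairs were counted on the same strand, but whether the kit marks strand was not given in the sources used here. The authors also deposited a table of log2-like values from the variance-stabilizing transformation of DESeq2, which was not used here. Column names gave each library's group and a number, which was not linked to the replicate numbers of the labels.

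Symbols, positions and biotypes came from GENCODE M21 (GRCm38), which held 55104 of 55450 gene IDs (99.4%). The analysis ran in R 4.3.3 and edgeR 4.0.16. filterByExpr on the 4 groups kept 16270 genes, and those left out held 0.0906% of counts. Scaling was by TMM, and a model with 1 mean per group over all 18 libraries was tested by quasi-likelihood F tests. The p-values were adjusted by Benjamini-Hochberg across the genes kept, and a gene was called at an adjusted value under 0.05. Log2 CPM used a prior count of 2. Lists are described by counts and medians, without a test. The steps were tested on simulated data.

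Named genes are Gnaq, the 12 largest rises and 12 largest falls among called genes with mean log2 CPM of at least 1 over the 8 libraries and no overlap between groups, up to 4 called members of each list with the smallest p, and a panel named whatever its values, 101 genes in all. Some members of the panel are not reported here. Further called members are given by fold change only. The comparison, the lists and the panel were chosen with earlier results of these data known. Of these 101 genes, 81 matched a RefSeq promoter. In the main fit, edgeR's p-values judged a difference between groups against the spread between hearts, estimated over all 18 libraries.

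Other settings tried were DESeq2 1.42.0, voom of limma 3.58.1 with weights per sample, size factors by median of ratios, no filter on counts, a mean CPM of at least 1, a fit of only the groups compared, and removal of each library in turn. List counts under each alternative and the treatment of Myl7 were added after seeing the data.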

Additional observations from a re-analysis of the deposited data

Results flagged for a closer look

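Within groups of 4 libraries, 12 of 200 groups of values held a library far from the others, where chance gives 10. After each gene stands the gap between that library and its neighbour as a share of the whole range of the 4. In WT CD 4, Pank1 (0.969), Pdk4 (0.96), Ehhadh (0.895), Ucp3 (0.894) and Adra1a (0.84) were low. These genes, apart from the receptor gene Adra1a, serve fatty acid and fuel metabolism or coenzyme A synthesis. Many of the named genes were chosen from such metabolism, so no shared theme is drawn from them. The total of 12 is near the 10 that chance gives. That total does not bear on how the values fall over libraries, and 5 of the 12 were in WT CD 4. In WT CD 5, Tfam (0.934), Pdhb (0.906) and Sod2 (0.863) were low and Tgfb3 (0.901) was high. In Gαq ERTU 17, Casq1 (0.911) and Myh6 (0.854) were high, and Nppa was high in Gαq ERTU 16 (0.867).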

How the results depend on the processing

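The 852 genes called between Gαq ERTU and WT CD became 844 with median-of-ratios size factors, 784 with no filter, 809 at a mean CPM of at least 1, 1156 by DESeq2, 761 with only the groups compared and 1753 by voom with sample quality weights. Leaving out 1 library at a time gave 534 to 976. The 1318 genes of Gαq CD against WT CD became 1685 by DESeq2 and 1734 by voom, and ran from 788 (without WT CD 1) to 1414, with 851 without WT CD 2. The 1 gene of Gαq ERTU against Gαq CD became 0 with no filter or with only the groups compared and 4 by DESeq2, and was 0 in each fit that left out 1 library (0 to 0). The median distance of 0.624 was 0.554 at a mean CPM of at least 1 and 0.608 to 0.648 with 1 library left out. Added after seeing the data, the removal of the library of highest Myl7 from each group gave 812, 1090 and 0 genes in these comparisons, and Myl7 as a covariate 672, 1529 and 0. The cause of these shifts was not tested. For the named genes, 767 of 800 values under other settings kept their side of the threshold, 23 calls were lost and 10 gained. With 1 library left out, 715 kept it, 81 calls were lost and 4 gained, and no called gene changed sign. With 4 hearts a group, changes may be missed, also ones larger than the smallest called where hearts of a group varied. The atrial marker Mybphl, for example, stood at 2.19 in Gαq ERTU against WT CD and was not called (edgeR, adjusted p = 0.393). A gene that was not called was thus not shown to be unchanged. No paired analysis was possible because no number in the column names is shared between groups.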

Other observations

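Marker lists outside the comparisons above gave these values. Endothelial markers summed to 2525 to 3504 CPM in WT CD and 2039 to 3038 CPM in Gαq ERTU, with 0 of 10 called. Of 13 clock genes and 10 immediate early genes, 0 were called by edgeR.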
